A study of Mus musculus with 6 samples.

Results

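Procollagen chains are modified inside the endoplasmic reticulum (ER) before they leave the cell, and 10 genes that encode the enzymes and the chaperone of these steps are described here. They were taken by symbol from a deposited table of 25655 genes as P4ha1, P4ha2, P4ha3, P4hb, Plod1, Plod2, Plod3, Colgalt1, Colgalt2 and Serpinh1, and all 10 were found. All samples were Comma-Dβ cells, a mammary epithelial cell line from the mouse, used at passage 29. One arm received a siGENOME SMARTpool of siRNAs against Id4 (siID4) and the other an ON-TARGETplus non-targeting pool (NT), each at 20 nM, with harvest 48 hr after transfection and 3 biological replicates per arm, and polyadenylated RNA was sequenced. Because the pools come from different product lines, an effect of the product line and an effect of the Id4 siRNAs cannot be told apart. The study asks what changes when Id4, which encodes an inhibitor of DNA binding, is lowered.

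In the background of these genes, collagen prolyl 4-hydroxylase is built from a catalytic alpha subunit (P4ha1, P4ha2 or P4ha3) and a beta subunit, the protein disulfide isomerase P4hb, and its hydroxyprolines stabilise the collagen triple helix. Lysyl hydroxylases (Plod1, Plod2 and Plod3) hydroxylate lysines, galactosyltransferases (Colgalt1 and Colgalt2) add galactose to hydroxylysine, and Plod3 can also add the glucose that follows. Serpinh1 encodes HSP47, a chaperone that binds folded procollagen in the ER. Both kinds of hydroxylase need oxygen, iron, ascorbate and 2-oxoglutarate, and several of their genes are known targets of hypoxia-inducible factors.

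Libraries held 19.2 to 23.1 M counts, so all but 1 of the 10 genes were measured from at least 85 counts per library. Levels are given as counts scaled to library size (CPM) with trimmed mean of M-values (TMM) factors unless TPM, a level per transcript length, is named. Id4 itself was at 135, 114 and 118 CPM in NT and 59.4, 62.2 and 48.2 CPM in siID4. On the log2 scale this was -1.11 with an SE of 0.10 (edgeR adjusted p = 8.65e-04). The targeted mRNA was therefore lower in every library labelled siID4 and still present. Mammary epithelial markers, Epcam, Cdh1 and the keratin genes Krt5, Krt14, Krt8 and Krt18 among them, were all detected, with a summed level of 2483 to 2818 CPM in NT and 2285 to 2647 CPM in siID4. Endothelial, leukocyte and adipocyte marker lists each summed to at most 2.81 CPM in any library, with Cd52 and Plin1 at 0 in all 6.

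The genes did not move as a block. Colgalt1 fell, Plod1 and P4ha3 rose, and the abundant partners P4hb, P4ha1 and P4ha2 differed by less than 0.10 on the log2 scale between the arms. Of the 9 genes tested, 2 rose and 1 fell at an edgeR adjusted p under 0.05, while over all 13941 genes tested 4.62% rose and 4.93% fell (9.55% in all). In the fit that adds the replicate number as a block, 4 rose and 1 fell, Plod3 and Serpinh1 being the additions, while 17.9% of all genes tested rose and 18.3% fell (36.1% in all). The median log2 fold change of the 9 was 0.07 and that of all genes tested 0.00. Colgalt2 did not pass the filter on low counts and was not tested. As RNA came from whole cultures, fewer cells expressing a gene and less RNA per cell cannot be told apart.

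**Figure D1:**
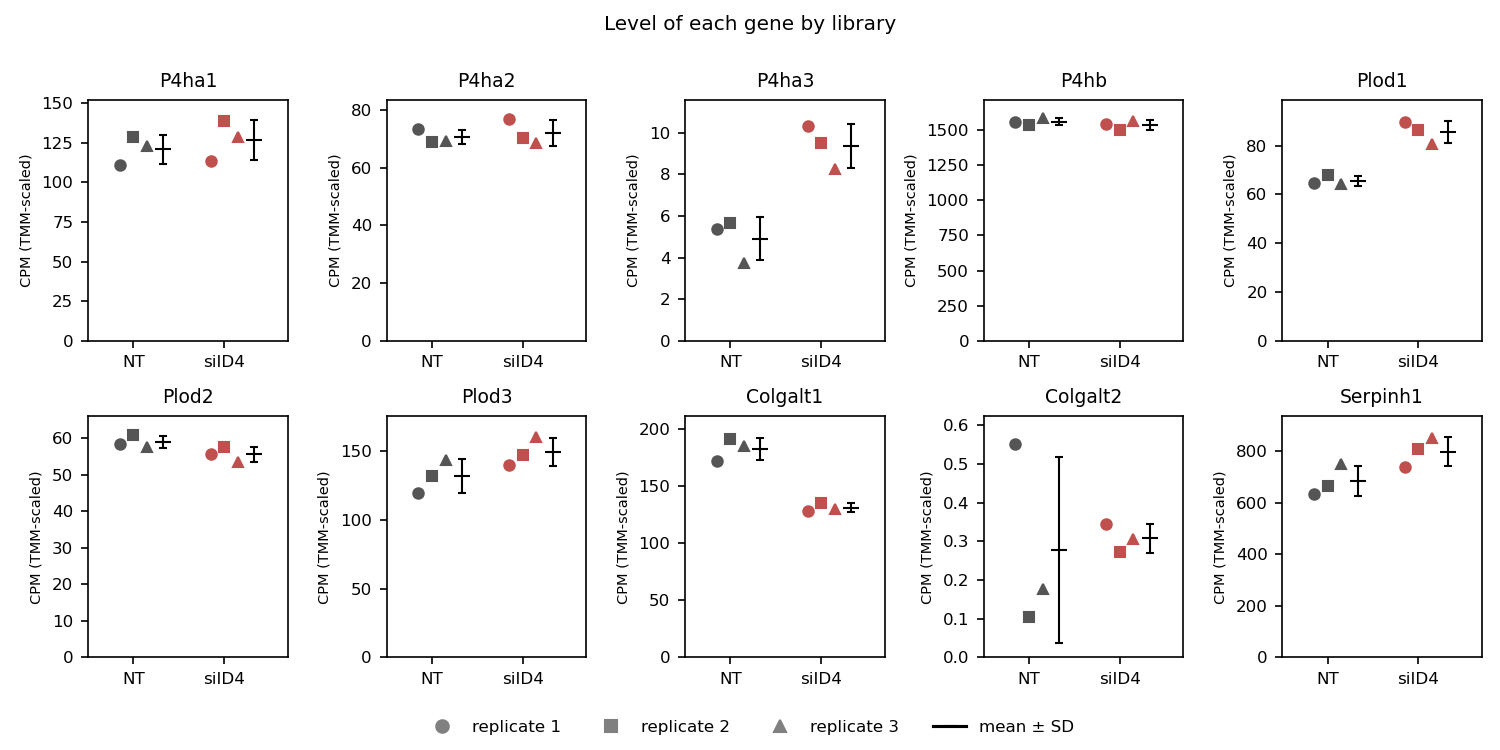
Level of each of the 10 genes in TMM-scaled CPM (vertical axes from 0, each with its own scale) in the 3 NT (grey) and 3 siID4 (red) libraries, with marker shapes for the replicate number and black bars for mean ± SD. The arms do not overlap for P4ha3, Plod1, Colgalt1 and, by a narrow margin, Plod2, and overlap for the other 6 genes. Of all genes tested, 30.9% had arms that did not overlap.

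The promoters of the 3 genes that passed the test are shown because ID proteins act by pairing with E proteins, helix-loop-helix factors that bind the E-box CANNTG. The windows come from RefSeq on GRCm38.p6, the assembly also called mm10, and reach from 250 bases before to 50 bases from the annotated start, written 5′ to 3′ on the gene's strand with each CANNTG match in capitals.
Colgalt1 (chr8:71610774-71611073, plus strand): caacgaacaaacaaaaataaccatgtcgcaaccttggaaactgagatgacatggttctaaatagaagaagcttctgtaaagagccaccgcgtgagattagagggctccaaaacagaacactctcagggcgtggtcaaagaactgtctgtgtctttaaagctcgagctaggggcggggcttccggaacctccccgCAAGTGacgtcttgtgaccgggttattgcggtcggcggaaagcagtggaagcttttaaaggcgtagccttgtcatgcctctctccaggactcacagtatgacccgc
Plod1 (chr4:147936727-147937026, minus strand): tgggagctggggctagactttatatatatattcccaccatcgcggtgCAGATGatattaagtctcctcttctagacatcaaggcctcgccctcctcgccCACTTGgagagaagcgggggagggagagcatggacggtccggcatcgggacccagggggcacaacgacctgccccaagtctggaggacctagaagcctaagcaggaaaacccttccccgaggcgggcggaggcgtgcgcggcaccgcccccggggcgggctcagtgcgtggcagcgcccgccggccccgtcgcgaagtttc
P4ha3 (chr7:100285270-100285569, plus strand): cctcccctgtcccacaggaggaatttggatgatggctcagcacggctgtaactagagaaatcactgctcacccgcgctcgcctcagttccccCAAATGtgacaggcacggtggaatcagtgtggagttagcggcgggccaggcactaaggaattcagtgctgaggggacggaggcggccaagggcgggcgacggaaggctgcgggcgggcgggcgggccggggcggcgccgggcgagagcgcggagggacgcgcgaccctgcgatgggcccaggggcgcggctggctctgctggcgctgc

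CAAGTG was the single match in Colgalt1, CAAATG the single match in P4ha3, and CAGATG with CACTTG the pair in Plod1. Since CANNTG is its own reverse complement, a match counts for both strands, and 72.3% of all 32851 promoter windows of this length hold at least one match. Windows were found for 8 of the 10 genes (9 windows, the second of Colgalt1 holding the same CAAGTG; none for Plod2 and Colgalt2), and 4 of these held CANNTG, the fourth being Plod3 with CAGTTG. None of the 8 held CAGCTG or CACCTG, which occur in 16.3% and 20.2% of all windows. The core of the hypoxia response element, ACGTG or GCGTG on either strand, was present in 7 of the 8 genes, P4ha3 being the exception, and in 43.8% of all windows (CACGTG would count for both motifs). The first count is by gene and the second by window, and enrichment was not tested. The windows of the 8 genes held 51.0% to 70.3% G and C, and the start used for P4ha2 lay 829 bases from its GENCODE start. These matches are descriptions of sequence, and no binding was measured.

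The alpha subunits of prolyl 4-hydroxylase behaved unequally, with the rarest of them rising. P4ha3 (ENSMUSG00000051048, chromosome 7 from 100285520 to 100319699, GRCm38) was at 5.37, 5.64 and 3.74 CPM in NT and 10.3, 9.51 and 8.24 CPM in siID4. Every siID4 library lay above every NT library. The log2 fold change was 0.94 (SE 0.17, 95% confidence interval 0.56 to 1.31, edgeR adjusted p = 0.00961), a 1.91-fold rise. The rise was present within each replicate number, with log2 differences of 0.88, 0.71 and 1.04. Raw counts were 85 to 108 in NT and 188 to 239 in siID4, the fewest among the genes tested. Without siID4 replicate 2 the gene did not pass (log2 fold change 0.92, edgeR adjusted p = 0.0533).

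P4ha1 (ENSMUSG00000019916), usually the main catalytic subunit, was at 111, 129 and 123 CPM in NT and 113, 139 and 129 CPM in siID4. The arms overlapped, and in both arms the library of replicate 1 was the lowest and that of replicate 2 the highest. Its log2 fold change was 0.07 (95% confidence interval -0.11 to 0.25, edgeR adjusted p = 0.649). P4ha2 (ENSMUSG00000018906), the second catalytic subunit, was at 73.3, 68.9 and 69.2 CPM in NT and 76.9, 70.4 and 68.4 CPM in siID4. Here too the arms overlapped, with a log2 fold change of 0.03 (95% confidence interval -0.11 to 0.16, edgeR adjusted p = 0.812).

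The beta subunit gene P4hb (ENSMUSG00000025130) was the most abundant of the 10 genes. It was at 1558, 1535 and 1584 CPM in NT and 1540.5, 1498 and 1563 CPM in siID4. The ranges overlapped, and its log2 fold change of -0.02 had the narrowest interval of the 9 genes tested (95% confidence interval -0.12 to 0.07, edgeR adjusted p = 0.779).

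Per transcript length, P4ha1 made up 54.4% ± 2.77 of the alpha subunit mRNA in NT and 53.6% ± 3.92 in siID4 (SD, n = 3 libraries per arm). P4ha2 made up 42.6% ± 2.57 and 40.8% ± 3.35. The share of P4ha3 was 3.45%, 3.42% and 2.35% in NT and 6.21%, 5.37% and 4.95% in siID4. The P4ha3 shares did not overlap between the arms (two-sided exact permutation p = 0.1, the smallest that 3 against 3 libraries allow), and those of P4ha1 (exact permutation p = 0.7) and P4ha2 (exact permutation p = 0.5) did. This test does not use the replicate numbers, within which the P4ha2 share was lower in siID4 in all 3 (siID4 minus NT, -0.71, -1.99 and -2.43 percentage points), and the P4ha1 share differed by -2.05, 0.04 and -0.17. P4ha3 thus stayed the minor form. Summed over the 3 genes, alpha subunit mRNA stood at 11.1 ± 0.452 per 100 of P4hb in NT and 11.96 ± 0.688 in siID4, in TPM.

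Among the lysyl hydroxylases, Plod1 rose, and Plod2 and Plod3 did not pass the test. Plod1 (ENSMUSG00000019055, chromosome 4 from 147909753 to 147936767, GRCm38), whose product acts on lysines of the triple helix, was at 64.8, 67.8 and 64.1 CPM in NT and 89.7, 86.5 and 80.7 CPM in siID4. All siID4 libraries were above all NT libraries. The log2 fold change was 0.39 (SE 0.06, 95% confidence interval 0.26 to 0.51, edgeR adjusted p = 0.00429), and the gene passed in each of the 14 alternative settings tried.

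Plod2 (ENSMUSG00000032374), which hydroxylates lysines of the telopeptides, was at 58.4, 60.8 and 57.7 CPM in NT and 55.6, 57.5 and 53.4 CPM in siID4. The arms did not overlap, by a margin smaller than the spread within either arm. Its log2 fold change was -0.09 (95% confidence interval -0.21 to 0.04, edgeR adjusted p = 0.376), and the gene did not pass with the block either (adjusted p = 0.107). Of the 9 genes tested, 2 had every siID4 library higher (P4ha3 and Plod1) and 2 every siID4 library lower (Plod2 and Colgalt1), where 30.9% of all genes tested had arms that did not overlap.

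Plod3 (ENSMUSG00000004846, chromosome 5 from 136987019 to 136996648, GRCm38), whose product joins lysyl hydroxylase and glycosyltransferase activities, was at 119, 131 and 144 CPM in NT and 140.0, 147 and 160.2 CPM in siID4. The arms overlapped because NT replicate 3 exceeded siID4 replicate 1. Its log2 fold change was 0.18 (95% confidence interval 0.01 to 0.35, edgeR adjusted p = 0.170). Within replicate numbers siID4 was higher by 0.23, 0.16 and 0.16 on the log2 scale, and with the block the gene passed (adjusted p = 1.57e-05). Its first 1003 bases overlap Znhit1 on the opposite strand (33.8 CPM in NT and 37.3 CPM in siID4), and the strand setting of the counting is not given in the sources used here.

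Per length, Plod3 was the main lysyl hydroxylase mRNA, with 61.4% ± 2.42 of the summed TPM in NT and 61.3% ± 2.64 in siID4. The shares of Plod1 and Plod2 differed between the arms. Plod1 held 22.1%, 21.4% and 19.5% in NT and 25.9%, 24.3% and 22.1% in siID4. Plod2 held 18.6%, 17.9% and 16.4% in NT and 14.99%, 15.1% and 13.7% in siID4. The Plod1 shares were higher and the Plod2 shares lower in all siID4 libraries, the closest Plod1 values differing by a small margin (two-sided exact permutation p = 0.1 for both, the smallest possible). This test does not use the replicate numbers. Within them siID4 minus NT was 3.82, 2.97 and 2.57 percentage points for Plod1 and -3.58, -2.80 and -2.74 for Plod2. Plod1 and Plod2 were at 38.9 ± 1.39 and 32.7 ± 1.09 TPM in NT and at 52.7 ± 3.20 and 31.9 ± 1.49 TPM in siID4. The TPM of Plod2 overlapped between the arms, while the sum of the 3 genes was 186 TPM in NT and 219 TPM in siID4.

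Colgalt1 (ENSMUSG00000034807, chromosome 8 from 71610998 to 71624911, GRCm38), the galactosyltransferase gene expressed in these cells, gave the smallest adjusted p of the 10. It was at 172, 191 and 185 CPM in NT and 128, 135 and 130.2 CPM in siID4. The highest siID4 library was well below the lowest NT library. The log2 fold change was -0.48 (SE 0.05, 95% confidence interval -0.60 to -0.36, edgeR adjusted p = 0.00129), which leaves 0.718 of the NT level. Within replicate numbers the log2 differences were -0.43, -0.50 and -0.50, and the gene passed in each of the 14 alternative settings (log2 fold change from -0.52 to -0.45). Its last 495 bases overlap Unc13a on the opposite strand, which was at 2.29 CPM in NT and 1.38 CPM in siID4.

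Colgalt2 (ENSMUSG00000032649), the second galactosyltransferase gene, had 11, 2 and 4 counts in NT and 8, 6 and 7 counts in siID4. These are close to the limit of detection in every library, and no fold change is given. Its per-length share of the galactosyltransferase mRNA was at most 0.248% in any library. Summed galactosyltransferase mRNA was 107.6 ± 5.91 TPM in NT and 79.9 ± 2.85 TPM in siID4.

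Following the rule set for likeness, the 3 genes whose log2 CPM tracked Colgalt1 most closely over the 6 libraries, among 10790 others with a mean of at least 5 CPM, were Eml1, Tram1 and Map3k5. Their levels in NT and siID4 were 60.4 ± 4.09 and 42.7 ± 1.28 CPM for Eml1, a microtubule-binding protein gene (edgeR adjusted p = 0.00305). Tram1, which encodes a protein of the ER translocon, was at 191.1 ± 2.46 and 175.0 ± 0.416 CPM (edgeR adjusted p = 0.0778, and 6.91e-04 with the block). Map3k5, a stress kinase gene, was at 34.2 ± 1.42 and 27.4 ± 0.551 CPM (edgeR adjusted p = 0.0170) and kept its call in 2 of the 6 fits without 1 library. Their likeness was 0.998, 0.997 and 0.996 on the scale of Pearson's coefficient, given as a ranking only, since the libraries share the arms.

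Serpinh1 (ENSMUSG00000070436, chromosome 7 from 99345376 to 99353239, GRCm38), the gene of the collagen chaperone HSP47, was second to P4hb in level. It was at 635, 665 and 748 CPM in NT and 737, 806 and 850.0 CPM in siID4. NT replicate 3 exceeded siID4 replicate 1, so the arms overlapped. The log2 fold change was 0.22 (SE 0.07, 95% confidence interval 0.06 to 0.39, edgeR adjusted p = 0.0850). Serpinh1 and Plod3 had the same pattern, with replicate 1 lowest and replicate 3 highest in both arms. Compared within replicate numbers, siID4 was higher by 0.21, 0.28 and 0.18 on the log2 scale. Serpinh1 passed with the block (adjusted p = 3.15e-08), with DESeq2 (adjusted p = 0.0473) and with edgeR without NT replicate 3 (adjusted p = 0.0276).

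**Figure D2:**
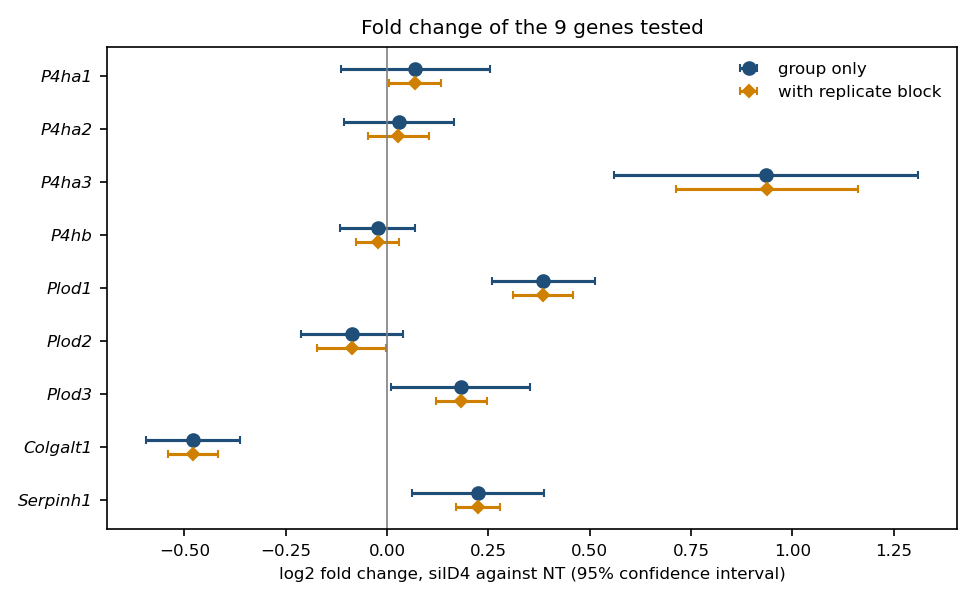
Log2 fold change of siID4 against NT (horizontal axis) for the 9 genes tested, from edgeR with group as the only term (blue circles) and with the replicate block added (orange diamonds); bars are 95% confidence intervals. Colgalt1 lies below 0 and Plod1 and P4ha3 above 0 in both fits, and the interval of Serpinh1 narrows from 0.06 to 0.39 without the block to 0.17 to 0.28 with it.

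Ranked per length, the order in NT was P4hb (1264 ± 13.5 TPM), Serpinh1 (561 ± 46.4), Plod3 (114 ± 10.6), Colgalt1 (107 ± 6.02), P4ha1 (76.1 ± 6.06), P4ha2 (59.4 ± 1.97), Plod1 (38.9 ± 1.39), Plod2 (32.7 ± 1.09), P4ha3 (4.30 ± 0.918) and Colgalt2 (0.127 ± 0.110). The libraries of Plod3 and Colgalt1 overlapped in this order, and those of the other neighbours did not. In siID4 Colgalt1 was at 79.8 ± 2.86 TPM, within the range of P4ha1 (82.7 ± 8.63 TPM), and well below Plod3 (134 ± 8.32 TPM). Plod3 was above Colgalt1 within every library of both arms, by a smaller margin in NT, where the ranges overlapped, than in siID4, where they did not.

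Several of the chains these proteins act on rose, namely Col1a1, Col1a2, Col5a1, Col5a2, Col6a2, Col7a1 and Col12a1. Among 15 collagen chain genes, 7 were called higher and 0 lower (10 and 2 with the block), with a median log2 fold change of 0.53. Over all genes tested, 4.62% rose and 4.93% fell (17.9% and 18.3% with the block). Leaving out NT replicate 2 brought the count of higher chains to 3, and leaving out siID4 replicate 2 to 4. Over all genes these fits called 291 of 14200 and 221 of 14168 higher, against 644 of 13941 in the main fit. Col1a1 and Col1a2, the chains of collagen I, had log2 fold changes of 0.63 and 0.40 (edgeR adjusted p = 3.91e-04 and 0.00310). Col5a1, a chain of collagen V, had 0.56 and Col12a1, a fibril-associated collagen, 0.62 (edgeR adjusted p = 0.00115 and 0.0116). Col12a1 did not pass without NT replicate 2 (adjusted p = 0.0509). Col4a1, Col4a2, Col5a3, Col16a1 and Col18a1 had log2 fold changes from -0.18 to 0.05 and did not pass, and Col4a1 and Col5a3 fell with the block (-0.15 and -0.18, adjusted p = 2.80e-05 and 9.76e-04).

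Set against the summed TPM of the 5 fibrillar chain genes Col1a1, Col1a2, Col3a1, Col5a1 and Col5a2, all the enzyme groups and the chaperone stood lower in siID4. The chain sum was 1538, 1335 and 1285 TPM in NT and 2259, 2110 and 1876.5 TPM in siID4. Of these 5, Col3a1 did not pass the test without the block (log2 fold change 0.57, edgeR adjusted p = 0.207). Col5a3, with a log2 fold change of -0.18, was not in the sum. Galactosyltransferase mRNA per 100 of chain mRNA was 6.59, 8.47 and 8.42 in NT and 3.46, 3.94 and 4.18 in siID4, a change of the mean by -50.7%. It was the one group whose own mean TPM was lower in siID4.

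Prolyl 4-hydroxylase alpha subunits stood at 10.2 ± 1.14 per 100 in NT and 7.43 ± 0.682 in siID4, a change of -26.9%, and P4hb at 91.8 ± 8.94 and 62.2 ± 6.20, a change of -32.2%. For both, as for the galactosyltransferases, the arms did not overlap. Lysyl hydroxylases stood at 13.5 ± 1.98 and 10.6 ± 1.20 (-21.9%) and Serpinh1 at 40.9 ± 6.88 and 32.9 ± 5.19 (-19.6%), and here the arms overlapped. In each of the 5 groups siID4 was lower than the NT library of the same replicate number in all 3 numbers. The 5 ratios share the chain sum as denominator, which was higher in siID4 in all 3 numbers, so the groups are not separate results. These ratios are descriptions without a test, and they compare mRNA, not enzyme amount or modification of collagen.

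**Figure D3:**
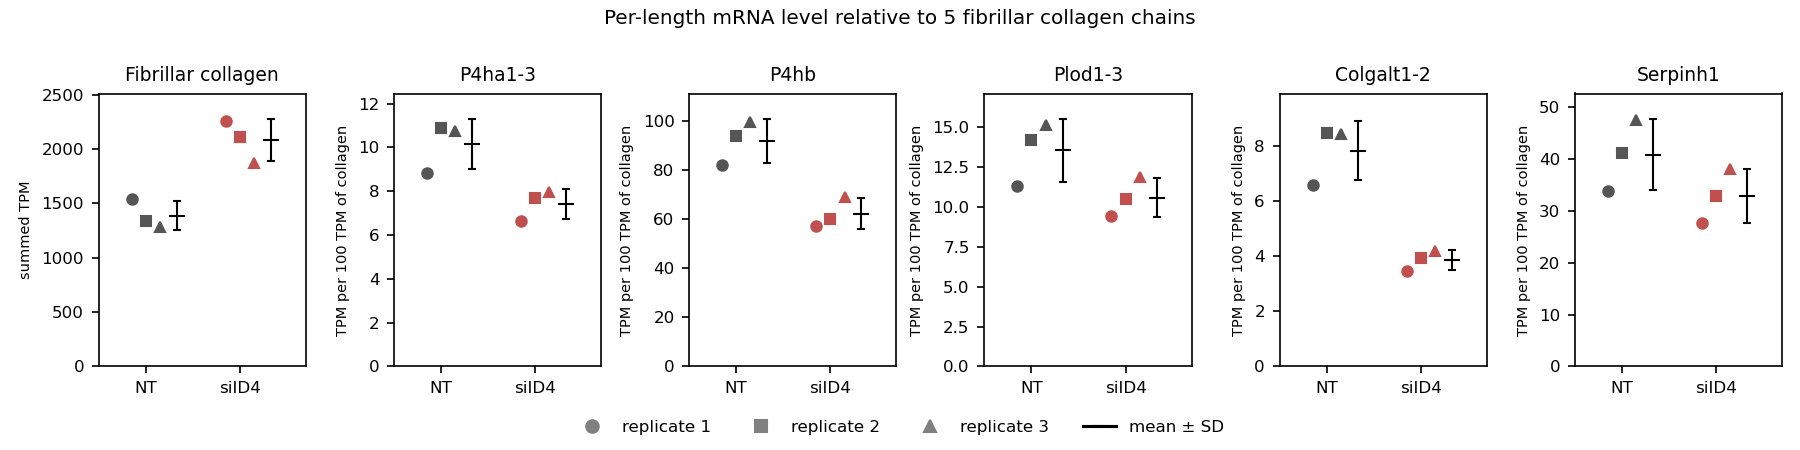
Left panel, summed TPM of 5 fibrillar collagen chain genes; other panels, TPM of each enzyme group or of Serpinh1 per 100 TPM of those chains (axes from 0), by library, with marker shapes for the replicate number and black bars for mean ± SD. The chain sum is higher in all siID4 libraries, and the ratios for P4ha1-3, P4hb and Colgalt1-2 are lower in all siID4 libraries.

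Markers of fibroblasts and of epithelium were read beside these results. Over all genes tested, 9.55% were called in either direction, and 36.1% with the block. The main fit called 644 genes higher and 687 lower. Without NT replicate 2 the counts were 291 and 340, and without siID4 replicate 2 they were 221 and 224. Of 6 fibroblast markers tested, Pdgfrb and Cxcl12 rose and Pdgfra fell, with a median log2 fold change of 0.51 (1 rose and 0 fell without NT replicate 2 or without siID4 replicate 2). With the block 4 rose and 2 fell, the additions being Thy1 and Fap, higher (adjusted p = 0.0172 and 0.00601), and Dcn, lower (adjusted p = 1.13e-06). The summed level of the 9 markers in the table was 542 to 691 CPM in NT and 748 to 864 CPM in siID4. Lum, Dpt and Pi16, also on this list, were at a mean of at most 0.353 CPM in either arm. Of 8 epithelial markers, Cdh1 and Trp63 rose (log2 fold change 0.24 and 0.27, edgeR adjusted p = 0.0234 and 0.0279) and Epcam fell (-0.25, edgeR adjusted p = 0.0211). With the block 2 rose and 5 fell, the additions being Krt5, Krt8, Krt18 and Itga6, all lower, with log2 fold changes from -0.23 to -0.12 in that fit. The part of either list in the results above was not tested.

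Other genes of the pathway gave no common direction. Counts in this and the following lists stand beside 4.62% higher and 4.93% lower over all genes tested, or 17.9% and 18.3% with the block. The list named prolyl 3-hydroxylation held P3h1, P3h2, P3h3, P3h4, Crtap and Ppib. Of these 6, 0 were called by edgeR, with log2 fold changes from -0.04 to 0.18. With the block 1 rose, P3h3 (adjusted p = 0.0152). Of 14 genes of collagen folding in the ER, 1 rose and 1 fell (2 and 4 with the block). Creb3l1, which encodes an ER-bound transcription factor that drives collagen secretion genes, went from 23.9 ± 1.19 to 36.4 ± 2.15 CPM (log2 fold change 0.60, edgeR adjusted p = 0.00223). Pdia6, a disulfide isomerase gene of the same family as P4hb, went from 434 ± 15.5 to 311 ± 8.06 CPM (log2 fold change -0.48, edgeR adjusted p = 6.57e-04).

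Of 10 procollagen export genes tested (Mia3, Sec23a, Sec24d, Sar1a, Sar1b, Tfg, Klhl12, Kdelr1, Kdelr2 and Kdelr3), 1 fell and 0 rose (3 fell and 1 rose with the block, the additions being Sar1a and Kdelr2, lower, and Sec23a, higher). It was Klhl12, whose product helps form large transport carriers, which went from 31.7 ± 1.12 to 19.4 ± 2.75 CPM (log2 fold change -0.71, edgeR adjusted p = 0.00412). Mia2, also on this list, did not pass the filter on low counts. Ctage5, listed as its alternative symbol, is a separate gene entry in these data and was not counted. Of 7 propeptide cleavage genes tested, 2 rose and 1 fell (4 and 2 with the block). Adamts2, which removes the amino propeptide, had a log2 fold change of 0.50 (edgeR adjusted p = 0.00438) and its relative Adamts14 of -0.32 (edgeR adjusted p = 0.00581). Adamts3 had 0.49 (edgeR adjusted p = 0.0421) and lost its call in each of the 6 fits without 1 library. Bmp1, Tll1, Pcolce and Pcolce2 did not pass, and with the block Bmp1 and Tll1 rose (adjusted p = 0.00229 and 0.0341) and Pcolce2 fell (adjusted p = 8.94e-07).

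Among 8 tested genes of cofactor supply and related dioxygenases, 2 fell and 0 rose (5 fell with the block), with a median log2 fold change of -0.15. Egln1, the oxygen-sensing prolyl hydroxylase of hypoxia-inducible factors, went from 80.1 ± 7.44 to 55.4 ± 2.46 CPM (log2 fold change -0.53, edgeR adjusted p = 0.00350). Hif1an, the asparaginyl hydroxylase of the same factors, went from 58.3 ± 1.98 to 45.7 ± 3.08 CPM (-0.35, edgeR adjusted p = 0.0121) and did not pass without NT replicate 2 (0.0545) or without siID4 replicate 2 (0.0662). Slc23a2, an ascorbate transporter gene, the zinc transporter genes Slc39a13 and Slc39a7, Egln2, Egln3 and Jmjd6 did not pass. With the block Egln3, Slc39a7 and Slc39a13 fell (adjusted p = 3.39e-09, 2.79e-05 and 0.00428).

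Hypoxia-responsive genes were counted because P4ha1, P4ha2 and Plod2 are known to respond to low oxygen. Of 20 tested, 9 fell and 0 rose (13 fell and 2 rose with the block, 4 fell without siID4 replicate 2), with a median log2 fold change of -0.30. Over all genes tested, 4.93% fell, and 18.3% with the block. Without siID4 replicate 2, 224 of 14168 genes fell, against 687 of 13941 in the main fit. Tpi1, Pgk1 and Ldha, genes of glycolysis, had log2 fold changes of -0.30, -0.33 and -0.31 (edgeR adjusted p = 0.00302, 0.00322 and 0.00389), and Vegfa had -0.45 (edgeR adjusted p = 0.00736, and 0.0508 without siID4 replicate 2). P4ha1, P4ha2 and Plod2, at 0.07, 0.03 and -0.09, did not pass. Oxygen was not a variable of the design.

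**Figure D4:**
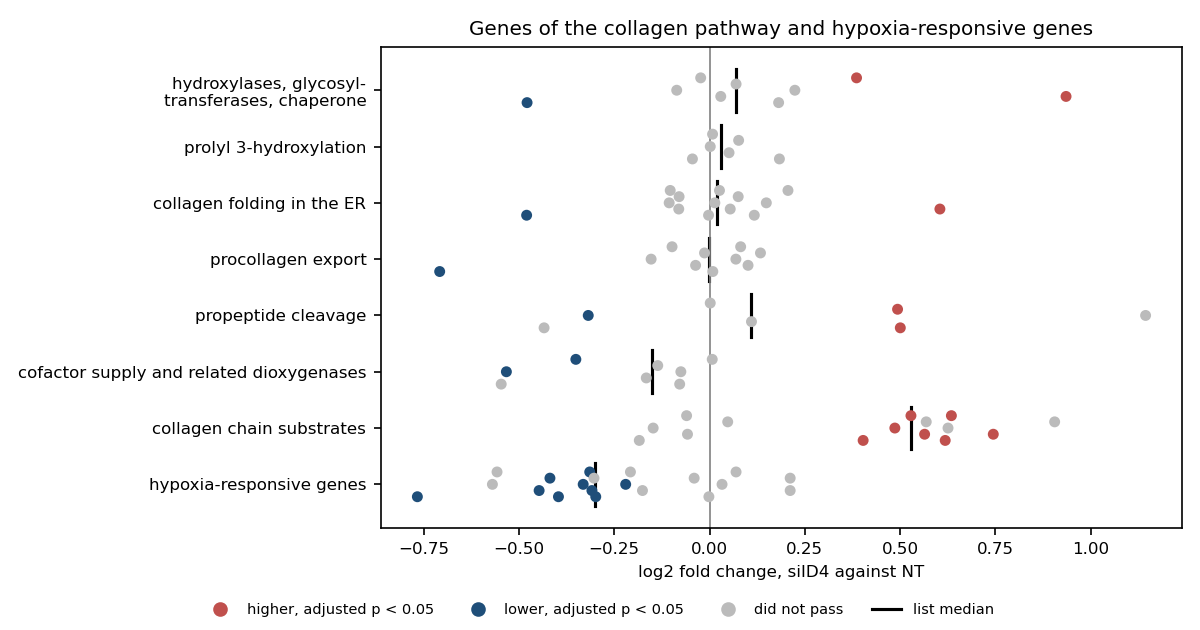
Log2 fold change of siID4 against NT (horizontal axis) for each gene tested, by list (rows; points are spread vertically for legibility), with black lines at list medians and colour for genes that passed edgeR at an adjusted p under 0.05. The collagen chain genes have a median of 0.53 and the hypoxia-responsive genes of -0.30, while the 9 hydroxylase, glycosyltransferase and chaperone genes spread from -0.48 to 0.94.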

How the data were processed

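The authors deposited 1 table of expected counts per gene for all 6 libraries, beside each gene's length. Cutadapt, STAR, RSEM and mm10 are named in the submitters' processing notes; annotation release and strand setting: not given in the sources used here. Columns were assigned to samples by siRNA and replicate number. Expected counts were rounded. The gene length was used only for TPM, computed as count over length scaled to the same total in each library.

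Arms were compared by the quasi-likelihood test of edgeR 4.0.16 (R 4.3.3) on all genes passing filterByExpr (13941), with TMM scaling, robust dispersions, group as the only term and Benjamini-Hochberg adjustment over all genes tested, called at an adjusted p under 0.05. All adjusted p-values are from edgeR unless another tool is named. SE was derived from the F statistic, and intervals from its degrees of freedom. The script was tested on simulated data. With 3 libraries per arm an exact permutation test cannot give a p below 0.1. Libraries of the same arm differed by more than sampling noise (chi-square of 5.09 to 13.6 per gene).

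Same-numbered libraries deviated together from their arm means (correlation 0.56, 0.18 and 0.50 across genes, which are not independent replicates). The numbers therefore appear to pair the samples, though what a pair would share is not in the labels. The main fit, its intervals and the permutation tests do not use the numbers, and this decides the call of Plod3. Serpinh1 passed with the block, but also without it in DESeq2 and in edgeR without NT replicate 3. Blocked values are given for the 10 genes where the block changes a call, and for each list as counts.

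Alternatives were other scalings (DESeq2 size factors, upper quartile, library totals), no filter, a filter at a mean of 5 CPM, limma-voom (limma 3.58.1), DESeq2 1.42.0, the block, and leaving out each library. Named genes are Id4, the 10 genes, up to 4 called genes with the smallest adjusted p per pathway list, lists of at most 10 genes tested, and the 3 genes most like the gene with the smallest adjusted p. Other genes, such as markers of cell types, were named after their values were seen. The members and lists were chosen with earlier results of these data known. Positions are from GENCODE M21 on GRCm38.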

Additional observations from a re-analysis of the deposited data

How the results depend on the processing

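Colgalt1 and Plod1 passed in all 14 alternatives and P4ha3 in 13. Counts over all genes went from 644 up and 687 down to 2493 up and 2545 down with the replicate block, and 1325 of the 1331 genes called without the block were called in the same direction with it. With library totals in place of TMM the split was 829 up and 564 down. Leaving out 1 library gave 221 to 686 up and 224 to 665 down; the lowest counts came without siID4 replicate 2, and without NT replicate 2 they were 291 and 340. Of the 10 genes described (9 tested), 4 were called up and 1 down with the replicate block, where 17.9% of all genes tested rose and 18.3% fell. Without 1 library 1 to 3 were called up and 1 down, beside the counts above out of 14092 to 14200 genes tested.

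Among the alternatives run, the sign changed only for values that did not pass a test. P4hb was 0.0057 on the log2 scale with library totals, and P4ha2 ranged from -0.0217 to 0.0645 without 1 library. The siID4 minus NT difference in the P4ha1 share ranged from -2.32 to 1.53 percentage points and in the Plod3 share from -1.55 to 1.26 without 1 library; the latter was 0.0545 with levels not divided by length. Among other named genes that did not pass, Crtap was -6e-04 and -8e-04 and Pcolce -6e-04 and -6e-04 with DESeq2 size factors and DESeq2, and Sec24d 0.0158 with library totals. Without 1 library, log2 fold changes ranged from -0.0239 to 0.0249 for Crtap, -0.0704 to 0.0698 for Pcolce, -0.0575 to 0.0296 for Sec24d, -0.0191 to 0.0277 for Mia3, -0.047 to 0.0711 for Egln2, -0.0106 to 0.0234 for P3h1, -0.0624 to 1e-04 for Kdelr1 and -0.1434 to 0.0035 for Jmjd6.

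The ratios to collagen kept their direction in every alternative, including collagen I chains only as the denominator, added after seeing the data. The chain sum itself was higher in siID4 in each of these settings, by 43.8% to 58.9% without 1 library. For the groups other than the galactosyltransferases, whose own levels rose less or stayed near level, the direction of the ratio therefore follows from the denominator. Their changes without 1 library ranged from -54.3% to -48.1% for the galactosyltransferases and from -26.0% to -12.4% for Serpinh1. Depth limits Colgalt2, at 2 to 11 counts. The cause of these shifts was not tested.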
